A study of Mus musculus with 6 samples.

Results

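The transcripts described here are those of 9 genes that mark microglia, the resident macrophages of the brain: *P2ry12*, *Cx3cr1*, *Tmem119*, *Csf1r*, *Aif1*, *Itgam*, *C1qa*, *C1qb*, and *Trem2*. They were chosen by symbol, and all 9 were found among the 14477 genes with a hippocampal RNA-Seq value. RNA came from the untreated, baseline hippocampi of 3 Phf21bΔ4/Δ4 mice (replicates 2, 3, and 6) and 3 Phf21b+/+ mice (WT, replicates 5, 7, and 8), with 1 library per mouse. Phf21bΔ4/Δ4 mice carry, in every cell of the body, a CRISPR/Cas9 deletion in the exon of *Phf21b* that encodes the PHD finger, on a C57BL/6J background. The study used young adult littermates of both sexes, and the labels give neither the age nor the sex of a single mouse. *Xist*, the noncoding RNA of the inactive X chromosome, lay between 86.9 and 215.9 CPM (read counts scaled by the authors to effective library size) in all 6 mice. The Y-chromosome genes *Ddx3y*, *Eif2s3y*, *Kdm5d*, and *Uty* were not among the genes with a value, so no mouse showed a male pattern. *Phf21b*, the targeted gene, stood at 3.20 ± 0.919 CPM with the deletion and 6.07 ± 0.724 CPM without it (here and throughout, mean ± SD of n = 3 mice), with no overlap between the genotypes (FDR 0.141, limma).

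Microglia survive on a signal through the receptor CSF1R, watch their surroundings with the nucleotide receptor P2RY12 and the fractalkine receptor CX3CR1, and engulf debris and synapses. Engulfment uses TREM2, which senses lipids and signals through TYROBP, and complement, in which C1q coats a target and the integrin that contains ITGAM (CD11b) binds a later complement fragment on it. In the healthy brain these genes are largely particular to microglia, which makes them a common gauge of microglial content. In whole tissue, fewer microglia and less marker RNA per microglia cannot be told apart.

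None of the 9 markers passed the thresholds for differential expression (an FDR below 0.1 with more than a 1.3-fold change) in limma's moderated test on log2 CPM. Of all genes, 1.22% passed, 0.553% higher and 0.663% lower in Phf21bΔ4/Δ4 mice. The log2 fold changes (Phf21bΔ4/Δ4 minus Phf21b+/+) ran from -0.25 for *Aif1* to 0.24 for *Itgam*, with a median of -0.10 against -0.02 over all genes. The median size of the change, regardless of sign, was 0.19 for the markers and 0.20 over all genes. FDR values lay between 0.167 and 0.787. At an unadjusted p under 0.05 there was 1 marker, *Csf1r*, where 23.6% of all genes had such a p, and limma voom on the recovered reads called none. The 95% interval of the difference stayed inside a 2-fold change for all 9 markers, as it did for 77.1% of all genes. It stayed inside a 1.3-fold change for 4 of them (*P2ry12*, *Cx3cr1*, *Tmem119*, and *Csf1r*), and for 27.2% of all genes. Summed over the 9 markers, the level was 325.5, 344.8, and 358.6 CPM in Phf21bΔ4/Δ4 replicates 2, 3, and 6 and 340.7, 314.1, and 348.8 CPM in Phf21b+/+ replicates 5, 7, and 8.

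**Figure D1:**
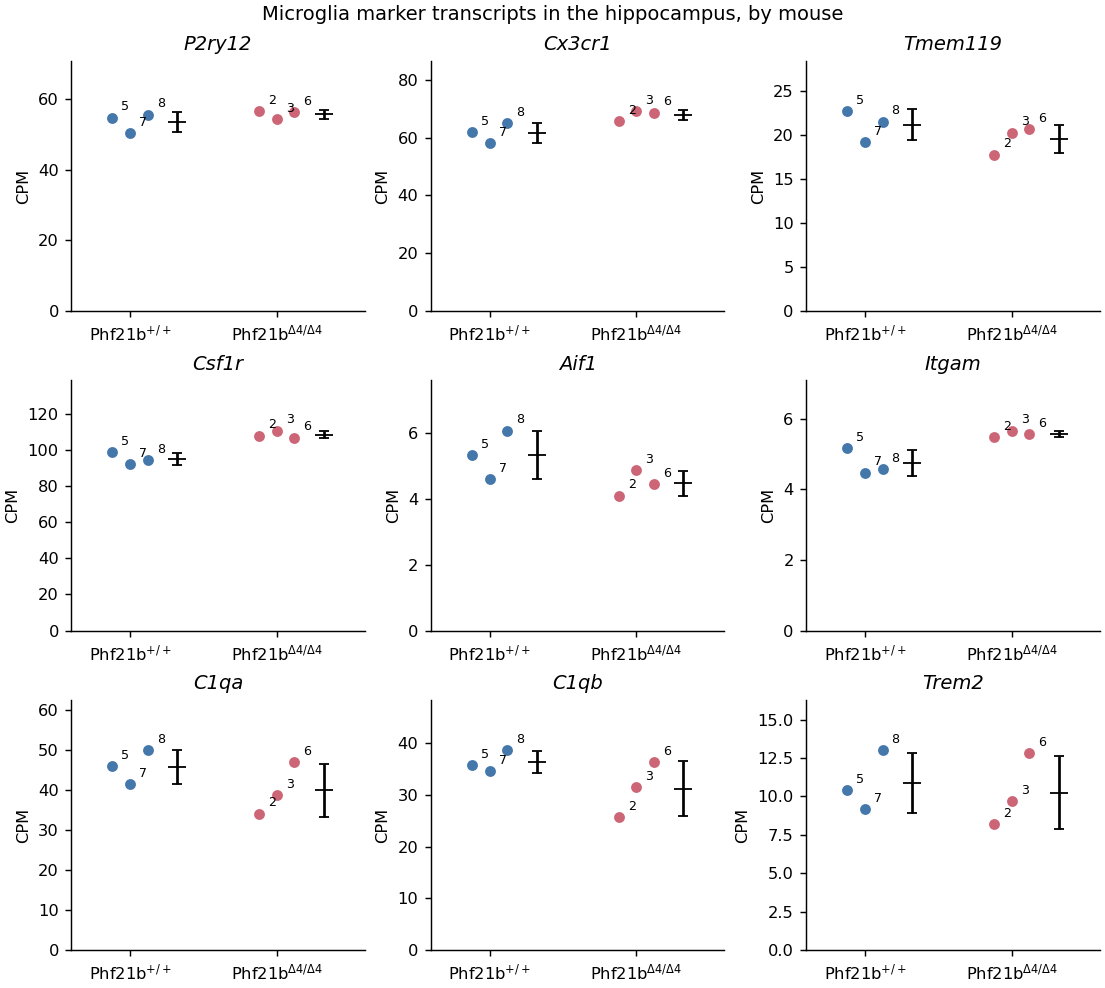
CPM of each microglia marker (vertical axes, from 0) in the 3 Phf21b+/+ mice (blue) and 3 Phf21bΔ4/Δ4 mice (red), with replicate numbers beside the points and the mean ± SD in black. The genotypes overlap in 6 panels, and in *Cx3cr1*, *Csf1r*, and *Itgam* all Phf21bΔ4/Δ4 mice lie above all Phf21b+/+ mice.

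**Figure D2:**
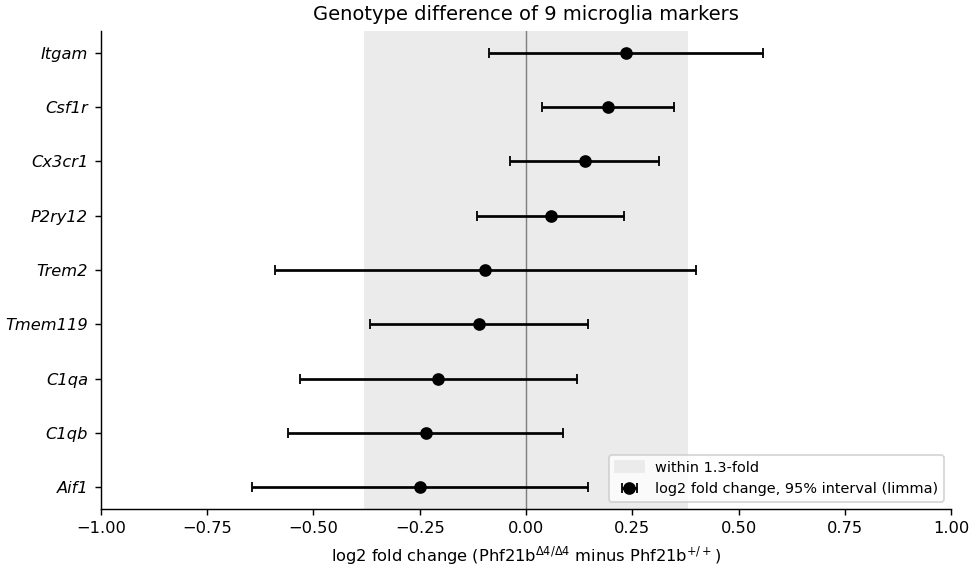
The log2 fold change (horizontal axis, Phf21bΔ4/Δ4 minus Phf21b+/+) of each marker with its 95% interval from limma. The grey band marks changes of less than 1.3-fold, and every point, from -0.25 to 0.24, lies inside it.

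*Csf1r*, on chromosome 18 of GRCm38 from 61100598 to 61132149, encodes the receptor for the growth factors CSF1 and IL-34 on which microglia depend. In CPM, which are not corrected for length, it had the highest level of the 9, with 107.9, 110.7, and 106.8 CPM in Phf21bΔ4/Δ4 mice and 98.6, 92.1, and 94.3 CPM in Phf21b+/+ mice. Every Phf21bΔ4/Δ4 mouse lay above every Phf21b+/+ mouse. The log2 difference was 0.19 (SE 0.07, FDR 0.167, limma), and the exact permutation test gave p = 0.1, the smallest that 3 mice against 3 allow. The *Csf1r* interval, 0.04 to 0.35 on the log2 scale, was the only one of the 9 that excluded 0. Of its exonic length, 15.1% is shared with *Hmgxb3* on the opposite strand, and reads there cannot be assigned to one of them without strand. Among its ligands, *Il34*, which neurons make, had 35.5 ± 2.37 CPM in Phf21bΔ4/Δ4 and 25.3 ± 5.83 CPM in Phf21b+/+ mice, which differed by 0.52 on the log2 scale (FDR 0.169, limma). *Csf1* had 21.8 ± 1.73 and 24.9 ± 1.74 CPM, which differed by -0.19 on the log2 scale (FDR 0.278, limma). In both ligands the genotypes did not overlap, *Il34* being the higher and *Csf1* the lower in Phf21bΔ4/Δ4 mice. The genotypes did not overlap in 31.0% of all genes. Of the 11 genes listed for this pathway, 0 were differentially expressed, where 1.22% of all genes were. *Sirpa*, an inhibitory receptor that neurons also carry, had the lowest FDR of the list (0.15, limma).

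*P2ry12*, on chromosome 3 from 59216272 to 59262871, encodes the receptor that guides microglial processes toward released nucleotides. With 56.6, 54.2, and 56.3 CPM in Phf21bΔ4/Δ4 mice and 54.7, 50.4, and 55.6 CPM in Phf21b+/+ mice, it had the smallest difference of the 9. The groups overlapped, and the log2 fold change was 0.06 (95% interval -0.12 to 0.23, FDR 0.633, limma). The gene lies inside *Med12l*, which is on the opposite strand, but shares only 9 exonic bases with it. Of the 11 genes analysed among 12 listed for nucleotide and fractalkine signalling, 0 were differentially expressed, where 1.22% of all genes were. Other purinergic members were *P2ry13*, with a log2 fold change of 0.18, and *Nt5e*, which makes adenosine and had the lowest point estimate of the list, -0.63 (FDR 0.364, limma).

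*Cx3cr1*, whose annotated span on chromosome 9 runs from 119901616 to 120069879, encodes the receptor for fractalkine, a chemokine displayed by neurons. Its level was 65.7, 69.1, and 68.6 CPM in Phf21bΔ4/Δ4 mice and 61.9, 58.0, and 65.0 CPM in Phf21b+/+ mice. The genotypes did not overlap, although the highest Phf21b+/+ mouse and the lowest Phf21bΔ4/Δ4 mouse lay less than 1 CPM apart. The difference of *Cx3cr1* was 0.14 on the log2 scale (95% interval -0.04 to 0.31, FDR 0.287, limma). Its ligand gene *Cx3cl1* had 470.2, 558.9, and 569.3 CPM in Phf21bΔ4/Δ4 mice and 400.4, 333.6, and 327.9 CPM in Phf21b+/+ mice. These groups did not overlap, as in 31.0% of all genes. The log2 fold change of *Cx3cl1* was 0.59 (FDR 0.116, limma), which did not pass the threshold. The promoter of *Cx3cr1* is shown because this marker lacks the letters GAGGAA (the PU box, a sequence recognized by the macrophage transcription factor PU.1) that several others hold. The window runs from 250 bases before to 50 after the annotated RefSeq start, at chr9:120068247-120068546 of GRCm38.p6 on the minus strand.
Cx3cr1: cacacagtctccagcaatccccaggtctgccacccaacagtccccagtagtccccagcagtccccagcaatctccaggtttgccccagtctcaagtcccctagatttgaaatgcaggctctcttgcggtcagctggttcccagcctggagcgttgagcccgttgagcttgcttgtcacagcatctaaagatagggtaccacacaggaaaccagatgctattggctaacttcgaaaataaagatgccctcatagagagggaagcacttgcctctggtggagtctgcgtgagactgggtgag

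*Tmem119*, on chromosome 5 from 113793729 to 113800516, encodes a membrane protein used to tell microglia from blood-derived macrophages. Levels were 17.8, 20.3, and 20.7 CPM in Phf21bΔ4/Δ4 mice and 22.7, 19.2, and 21.5 CPM in Phf21b+/+ mice. The groups overlapped, with Phf21bΔ4/Δ4 replicate 2 lowest and Phf21b+/+ replicate 5 highest. The log2 fold change of *Tmem119* was -0.11 (95% interval -0.37 to 0.15, FDR 0.532, limma).

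*Aif1*, on chromosome 17 from 35170991 to 35176068, encodes IBA1, the actin-binding protein by which microglia are usually stained. It was covered by between 97 and 135 reads per mouse. Its level was 4.09, 4.86, and 4.44 CPM in Phf21bΔ4/Δ4 mice and 5.32, 4.6, and 6.07 CPM in Phf21b+/+ mice. Phf21b+/+ replicate 7 lay within the range of the Phf21bΔ4/Δ4 mice, and the other two WT mice lay above it. The log2 fold change was -0.25, the lowest of the 9 (95% interval -0.64 to 0.14, FDR 0.372, limma).

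*Trem2*, on chromosome 17 from 48346401 to 48354147, had 8.18, 9.72, and 12.8 CPM in Phf21bΔ4/Δ4 mice and 10.4, 9.20, and 13.03 CPM in Phf21b+/+ mice. It was the most variable marker, with a residual SD of 0.293 on the log2 scale against a median of 0.12 for the 9 and 0.175 for all genes. The 2 genotypes covered nearly the same range, and the log2 fold change was -0.10 (95% interval -0.59 to 0.40, FDR 0.787, limma). *Tyrobp*, the adaptor through which TREM2 signals, had 12.4, 12.5, and 15.1 CPM in Phf21bΔ4/Δ4 mice and 16.9, 14.5, and 16.4 CPM in Phf21b+/+ mice. Its groups overlapped by 1 mouse, and *Tyrobp* differed by -0.26 on the log2 scale (FDR 0.242, limma). Of the 9 genes analysed among 14 listed for this pathway, 0 were differentially expressed, where 1.22% of all genes were. *Apoe* and *Clu*, lipid carriers that bind TREM2 and are made mainly by astrocytes, had log2 fold changes of -0.35 (FDR 0.165) and -0.37 (FDR 0.178, limma), with no overlap between the genotypes. The lipid phosphatase gene *Inpp5d* had 0.36 (FDR 0.173, limma), also with no overlap, which was the case in 31.0% of all genes.

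*C1qa* and *C1qb* encode chains of C1q, the molecule that starts the classical complement cascade, and lie beside *C1qc* within a short stretch of chromosome 4 from 136880129 to 136898803. *C1qa* had 34.1, 38.7, and 47.1 CPM in Phf21bΔ4/Δ4 mice and 46.0, 41.4, and 50.1 CPM in Phf21b+/+ mice. Levels of *C1qb* were 25.7, 31.5, and 36.3 CPM in Phf21bΔ4/Δ4 mice and 35.8, 34.6, and 38.7 CPM in Phf21b+/+ mice. In both genes Phf21bΔ4/Δ4 replicates 2 and 3 lay below all other mice, and replicate 6 lay among the Phf21b+/+ mice. The log2 fold changes were -0.21 (95% interval -0.53 to 0.12, FDR 0.371) for *C1qa* and -0.24 (-0.56 to 0.09, FDR 0.314, limma) for *C1qb*. *C1qc* had 30.7, 34.1, and 41.4 CPM in Phf21bΔ4/Δ4 mice and 39.4, 35.3, and 40.6 CPM in Phf21b+/+ mice, which differed by -0.13 on the log2 scale (FDR 0.536, limma). The log2 ratio of *C1qa* to *C1qb* lay between 0.26 and 0.41 across the 6 mice, and that of *C1qa* to *C1qc* between 0.15 and 0.30. The genotypes overlapped in the ratio to *C1qb*. In the ratio to *C1qc* they did not, with 0.175 ± 0.018 in Phf21bΔ4/Δ4 and 0.252 ± 0.043 in Phf21b+/+ mice. The ratios were chosen after the values were seen, and this difference was not tested. Among single genes, the genotypes did not overlap in 31.0%.

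The promoters of the neighbouring *C1qb* and *C1qc* are shown because their transcripts moved together across the mice, and the capitals mark GAGGAA or its reverse complement TTCCTC. The *C1qb* window lies at chr4:136886151-136886450 and the *C1qc* window at chr4:136892865-136893164, both of GRCm38.p6 on the minus strand and from RefSeq.
C1qb: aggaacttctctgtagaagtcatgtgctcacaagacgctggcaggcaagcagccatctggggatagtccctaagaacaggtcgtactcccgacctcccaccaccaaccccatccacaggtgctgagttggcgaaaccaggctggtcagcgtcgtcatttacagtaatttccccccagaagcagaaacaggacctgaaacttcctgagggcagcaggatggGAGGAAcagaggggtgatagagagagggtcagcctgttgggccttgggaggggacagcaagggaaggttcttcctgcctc
C1qc: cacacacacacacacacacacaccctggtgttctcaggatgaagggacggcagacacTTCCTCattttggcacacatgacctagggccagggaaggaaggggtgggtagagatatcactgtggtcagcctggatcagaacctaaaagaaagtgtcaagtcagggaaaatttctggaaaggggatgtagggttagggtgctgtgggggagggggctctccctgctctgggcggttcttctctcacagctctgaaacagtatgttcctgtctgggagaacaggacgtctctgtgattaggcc

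*Itgam*, on chromosome 7 from 128062640 to 128118491, encodes CD11b, a chain of the receptor that binds complement on tagged synapses. It had 5.48, 5.67, and 5.57 CPM in Phf21bΔ4/Δ4 mice and 5.17, 4.47, and 4.58 CPM in Phf21b+/+ mice, from between 102 and 130 reads. The Phf21bΔ4/Δ4 mice lay above all Phf21b+/+ mice and very close to each other. The log2 fold change of *Itgam* was 0.24 (95% interval -0.09 to 0.56, FDR 0.315, limma; exact permutation test, p = 0.1). In the GENCODE release used here, 68.7% of the exonic length of *Itgam* is shared with the predicted gene *Gm49368* on the same strand. How the authors' counting treated reads on such shared exons is not given in the sources used here, and reads there cannot be told apart. The partner chain *Itgb2* had 5.04 ± 1.83 and 5.45 ± 0.205 CPM, which differed by -0.17 on the log2 scale (FDR 0.69, limma). The promoter of *Itgam*, at chr7:128062390-128062689 of GRCm38.p6 on the plus strand, is shown as the one with the most PU boxes among the 6 markers with a promoter window, 3 in all.
Itgam: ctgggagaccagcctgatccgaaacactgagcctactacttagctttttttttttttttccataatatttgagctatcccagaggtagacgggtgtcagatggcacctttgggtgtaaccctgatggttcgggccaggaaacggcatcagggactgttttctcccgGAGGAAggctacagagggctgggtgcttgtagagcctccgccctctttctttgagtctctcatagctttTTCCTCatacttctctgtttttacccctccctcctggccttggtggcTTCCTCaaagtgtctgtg

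RefSeq promoter windows of 300 bases were matched for 6 of the 9 markers. GAGGAA was found on either strand in 4 of these 6 (*Aif1*, *Itgam*, *C1qb*, and *Trem2*) and not in *P2ry12* or *Cx3cr1*, while 28.3% of all 32851 windows hold it. These letters include GGAA, the core shared by all ETS factors, which 96.0% of all windows hold. Markers with the PU box letters included the highest log2 fold change, that of *Itgam*, and the lowest, that of *Aif1*.

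Of the complement genes listed, 22 of 32 were analysed and 0 were differentially expressed (FDR under 0.1 and fold above 1.3, limma). Of all genes, 1.22% were. *C3*, the central component from which the fragment bound by CD11b is cut, had 1.77, 0.286, and 2.61 CPM in Phf21bΔ4/Δ4 mice and 2.99, 8.19, and 6.56 CPM in Phf21b+/+ mice. The genotypes did not overlap in *C3*, as in 31.0% of all genes, and the log2 fold change was -2.30 (FDR 0.18, limma). *Serping1*, the inhibitor of the proteases bound to C1q, had 2.79 ± 1.21 and 6.03 ± 0.201 CPM, which differed by -1.22 on the log2 scale (FDR 0.151, limma). At the other end of the list stood *Sez6*, a neuronal protein with complement control domains, with 151.9, 204.0, and 95.7 CPM in Phf21bΔ4/Δ4 mice and 55.3, 46.8, and 66.8 CPM in Phf21b+/+ mice. The difference of *Sez6* was 1.37 on the log2 scale (FDR 0.116, limma).

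Levels per length, in CPM per kilobase of exon, put *C1qa* highest in Phf21b+/+ mice, at 44.1 ± 4.15, and *Itgam* lowest, at 0.944 ± 0.0748. Between them came *C1qb* (33.5 ± 1.92), *P2ry12* (21.03 ± 1.10), *Csf1r* (16.5 ± 0.568), *Cx3cr1* (13.7 ± 0.775), *Tmem119* (9.14 ± 0.765), *Aif1* (3.48 ± 0.479), and *Trem2* (2.20 ± 0.397). The ranges over the 3 Phf21b+/+ mice did not overlap between any neighbours in this order. The exons of *Trem2* add up to 4946 bases over all annotated transcripts, but its principal transcript has 1088. By the principal transcript *Trem2* came to 9.996 ± 1.80 CPM per kilobase, and its range then overlapped with that of *Tmem119*, at 9.44 ± 0.790. The level of *Itgam* per length depends on how reads were counted on the 68.7% of its exonic length shared with *Gm49368*. The order of the 9 markers in Phf21bΔ4/Δ4 mice was the same per kilobase of exon, with *C1qa* at 38.4 ± 6.31 and *Itgam* at 1.11 ± 0.0185.

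Across the mice the markers followed 2 profiles, a division made after the values were seen and given as a description. It is also the division by the sign of the log2 fold change, so the 2 profiles are not independent of the genotype difference. The transcripts of *C1qa*, *C1qb*, *Trem2*, and *Aif1* were highest in Phf21b+/+ replicate 8 and lowest in Phf21bΔ4/Δ4 replicate 2, in which *Tmem119* was lowest as well. The transcripts of *P2ry12*, *Cx3cr1*, *Csf1r*, and *Itgam* were all lowest in Phf21b+/+ replicate 7. Over the 6 mice, log2 CPM of *C1qa* had a Pearson r of 0.96 with *C1qb*, 0.98 with *C1qc*, and 0.91 with *Trem2*, and *Csf1r* had 0.97 with *Itgam*, while *Csf1r* against *C1qb* gave -0.59. These points share their libraries and scaling, and 6 mice in 2 genotypes make them a description only. The log2 ratio of *Csf1r* to *C1qb* was 2.07, 1.81, and 1.56 in Phf21bΔ4/Δ4 mice and 1.46, 1.41, and 1.28 in Phf21b+/+ mice. This ratio separated the genotypes, as *Csf1r* alone did and *C1qb* alone did not. The ratio of *Cx3cr1* to *C1qa* also separated them, as *Cx3cr1* alone did, with 0.78 ± 0.21 and 0.43 ± 0.06 (log2), and both ratios were picked for this pattern and were not tested.

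**Figure D3:**
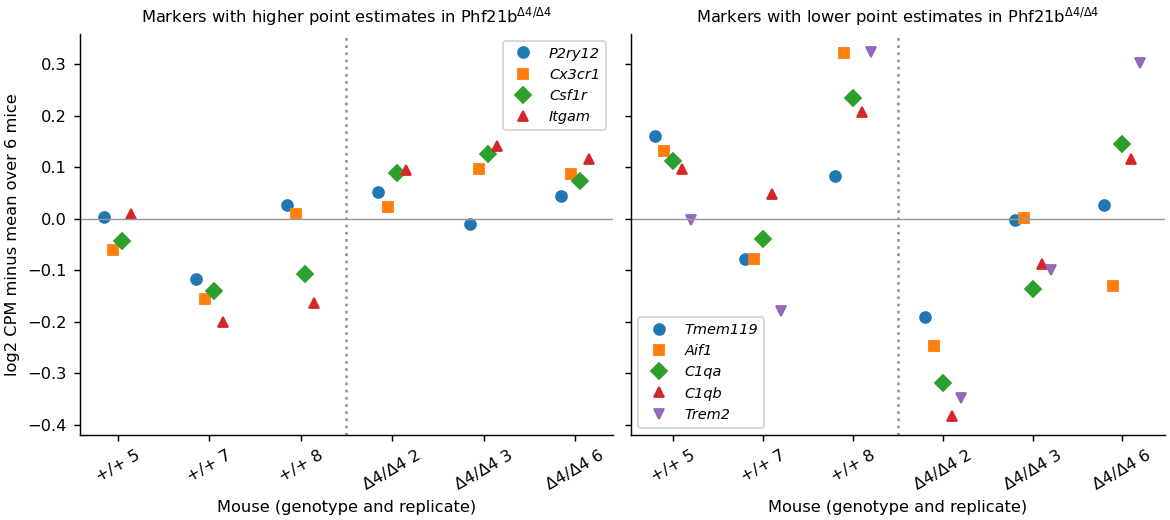
Log2 CPM of each marker minus its mean over the 6 mice (vertical axis), by mouse, with Phf21b+/+ left and Phf21bΔ4/Δ4 right of the dotted line. The panels divide the markers by the sign of the log2 fold change, higher in Phf21bΔ4/Δ4 mice on the left and lower on the right. The 4 markers in the left panel are lowest in Phf21b+/+ replicate 7, and the 5 in the right panel are lowest in Phf21bΔ4/Δ4 replicate 2 and spread more widely.

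In 3 of the 9 markers (*Cx3cr1*, *Csf1r*, and *Itgam*), all Phf21bΔ4/Δ4 mice lay above all Phf21b+/+ mice, and in 0 below. Of all genes, 31.0% were separated in this way, 15.0% wholly above and 16.0% wholly below. Among the markers, longer genes tended to have higher log2 fold changes. By summed exon length *Trem2* was an exception, at 4946 bases and -0.10, but its principal transcript, of 1088 bases, is among the short ones. *C1qa*, *C1qb*, and *Aif1*, with 1040, 1088, and 1532 exonic bases, had the lowest values, and *Cx3cr1*, *Itgam*, and *Csf1r*, with 4505, 5024, and 5774, the highest. Across the 9 markers, log2 exon length and log2 fold change had a Pearson r of 0.84 and a Spearman rho of 0.87, or 0.95 and 0.93 with the length of the principal transcript. These are correlations across genes, which are not independent replicates. The same relation was weaker over the 40 other microglial genes (r 0.34, rho 0.26) and over the 14283 genes with an annotated length (r 0.16, rho 0.22). With all genes divided by length into 5 equal groups, the shortest group, up to 2556 bases and holding *C1qa*, *C1qb*, *Aif1*, *Tmem119*, and *P2ry12*, had a median log2 fold change of -0.13, and the longest group 0.09. With each mouse centred on gene length, an alternative chosen after the data were seen, *C1qa*, *C1qb*, and *Tmem119* had log2 fold changes of 0.10, 0.06, and 0.07, opposite in sign to those above. The median over all genes also moved with this step, from -0.02 to 0.08, so these 3 values lay near that median. *Csf1r* was differentially expressed neither with nor without this step. What part length, or what varies with it in a library, has in these differences was not tested further.

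**Figure D4:**
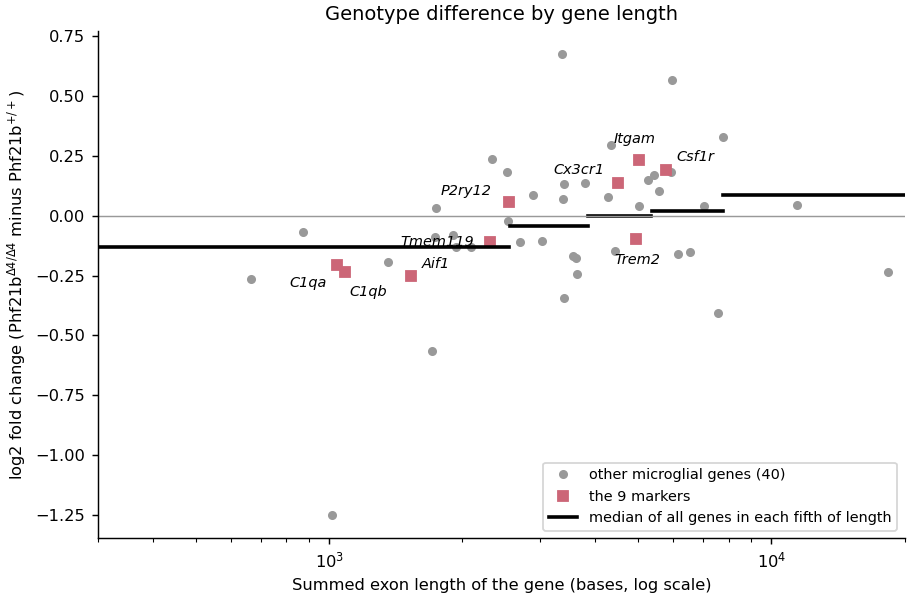
The log2 fold change (vertical axis, Phf21bΔ4/Δ4 minus Phf21b+/+) against summed exon length (horizontal log axis) for the 9 markers (red) and 40 other microglial genes (grey), with the median of all genes in each of 5 length groups as black bars. The bars climb from -0.13 for the shortest genes to 0.09 for the longest, and the markers climb from *C1qb* and *Aif1* to *Csf1r* and *Itgam*. *Trem2* lies below its neighbours in summed exon length, but its principal transcript has only 1088 bases.

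The calls on the C1q genes depended on the weight given to single mice. With each mouse weighted by how closely it followed the fitted genotype means (limma's arrayWeights), 4 markers passed both thresholds, all lower in Phf21bΔ4/Δ4 mice. These were *Aif1* (log2 fold change -0.44, FDR 0.055), *C1qa* (-0.42, FDR 0.0278), *C1qb* (-0.44, FDR 0.0259), and *Trem2* (-0.45, FDR 0.0841, limma). The same weighting called 3549 of all genes in place of 176. It gave the highest weights, 4.63 and 2.04, to Phf21b+/+ replicate 8 and Phf21bΔ4/Δ4 replicate 2, the mice in which these 4 markers were at their highest and lowest, and the lowest weight, 0.343, to Phf21bΔ4/Δ4 replicate 6.

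Beyond the 9 markers, 40 other genes used as microglial signatures were all found, and 0 were differentially expressed (limma, and 0 by voom). In limma, 1.22% of all genes were. At an unadjusted p under 0.05, 4 were higher and 1 was lower, where 23.6% of all genes had such a p in either direction. Their median log2 fold change was -0.05. *Fcrls*, an Fc receptor-like gene, had a log2 fold change of 0.24 (FDR 0.165), the lysosomal protease gene *Ctss* -0.19 (FDR 0.404), and the transcription factor gene *Spi1*, which encodes PU.1, -0.11 (FDR 0.753, limma). The lowest point estimate of the list was that of *Ltc4s*, at -1.25 (FDR 0.311, limma). *Ltc4s* had 11.6 CPM in Phf21b+/+ replicate 7 and between 1.14 and 2.11 CPM in the other 5 mice. *Hk2* had the lowest FDR of the list, 0.158, with 9.55 ± 2.12 and 6.35 ± 0.463 CPM, and is a glycolytic enzyme that other brain cells also make.

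Genes that microglia raise when they are activated showed 0 calls among the 21 analysed of 32 listed (limma), where 1.22% of all genes were called. All Phf21bΔ4/Δ4 mice lay below all Phf21b+/+ mice in 6 of them, where 16.0% of all genes did, and above in 0. *Spp1* (osteopontin) had 1.69, 1.48, and 1.09 CPM in Phf21bΔ4/Δ4 mice and 3.37, 4.73, and 2.52 CPM in Phf21b+/+ mice, which differed by -1.29 on the log2 scale (FDR 0.133, limma). The tetraspanin gene *Cd63* had 19.3 ± 0.782 and 35.4 ± 12.4 CPM, with 49.6 CPM in Phf21b+/+ replicate 7. *Cd68*, the lysosomal protein most used to stain activated microglia, had a log2 fold change of 0.28, with overlapping genotypes (FDR 0.415, limma), and *Lpl* had 0.53, the highest of the list (FDR 0.266, limma). *Apoe*, *Cd9*, *Cd63*, *Spp1*, and the cathepsins are also made by other brain cells.

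Macrophages of the brain borders express *Csf1r*, *Cx3cr1*, *Aif1*, *Itgam*, and C1q as well. Of 11 genes listed for them, 4 were analysed, and their summed level was between 32.8 and 42.4 CPM in Phf21bΔ4/Δ4 mice and between 33.2 and 33.6 CPM in Phf21b+/+ mice. *Mrc1*, their mannose receptor, had 3.62 ± 1.28 and 2.96 ± 0.527 CPM (FDR 0.634, limma). *F13a1* had the lowest FDR of the 4 (0.175, limma), with 1.04 ± 0.352 and 1.94 ± 0.365 CPM and a log2 fold change of -0.93. All Phf21bΔ4/Δ4 mice lay below all Phf21b+/+ mice in *F13a1*, as in 16.0% of all genes. The other 3 border genes had higher point estimates in Phf21bΔ4/Δ4 mice. None of the 17 genes listed for blood leukocytes was among the genes analysed. Haemoglobin and other red cell genes (5 of 6 analysed) summed to between 33.0 and 110.3 CPM, highest in Phf21b+/+ replicate 8 and next in Phf21bΔ4/Δ4 replicate 2, at 71.4 CPM.

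Medial habenula genes, which belong to a region outside the hippocampus, were differentially expressed in 12 of 15 cases, all lower in Phf21bΔ4/Δ4 mice. Of all genes, 0.663% were called lower and 0.553% higher. The lists in this paragraph were chosen with earlier results of these data known. Many medial habenula and some CA1 genes are among those the paper reports as differentially expressed, so these counts are a description and no independent test. Their summed level was 97.6 to 153.3 CPM in Phf21bΔ4/Δ4 mice and 532.6 to 674.9 CPM in Phf21b+/+ mice. Choroid plexus genes (10 of 10 analysed, 1 lower) summed to 15920 CPM in Phf21b+/+ replicate 7, 998.7 in replicate 8, and between 24.8 and 86.0 in the other 4 mice. Dentate granule cell genes (9 of 9 analysed, 0 called) summed to 369.2 and 333.6 CPM in Phf21bΔ4/Δ4 replicates 2 and 3 and between 778.0 and 983.5 CPM in the other 4 mice. These replicates 2 and 3 are also the mice with the lowest *C1qa* and *C1qb*. CA1 pyramidal genes (8 of 9 analysed, 3 higher) summed to 1023 to 1201 CPM in Phf21bΔ4/Δ4 mice and 420.5 to 465.6 CPM in Phf21b+/+ mice. Among astrocyte genes 1 of 12 was lower (*Aqp4*, FDR 0.0669, limma), and among oligodendrocyte and endothelial genes 0 of 12 each were called. What part these differences in tissue content have in the values of single microglia markers was not tested.

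**Figure D5:**
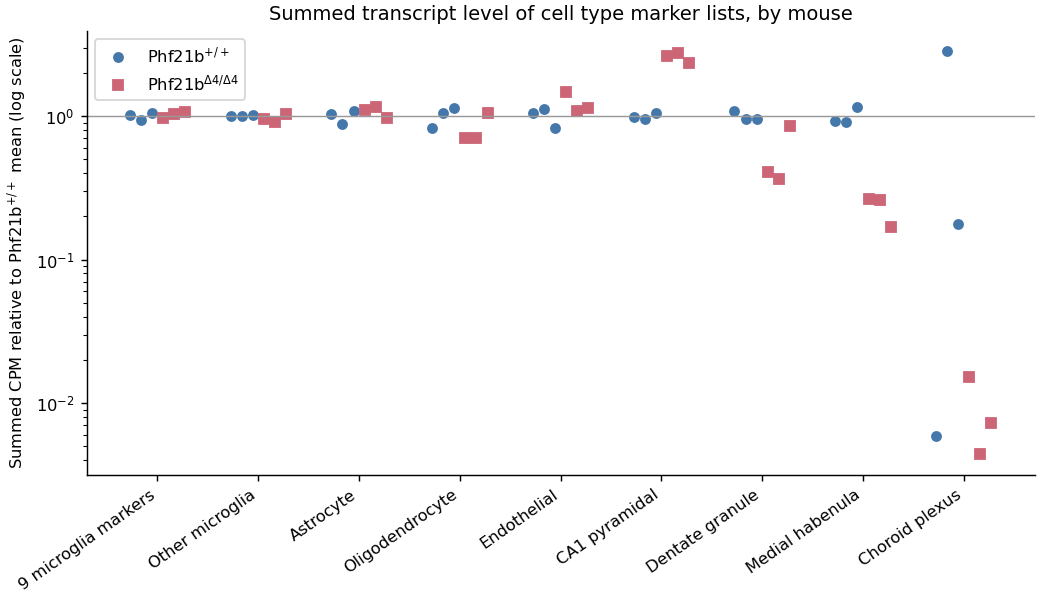
Summed CPM of each marker list in each mouse (blue circles, Phf21b+/+, and red squares, Phf21bΔ4/Δ4), relative to the Phf21b+/+ mean, on a log axis. The 9 microglia markers and the 40 other microglial genes lie in a narrow band around 1, whereas medial habenula, dentate granule, CA1, and choroid plexus lists spread apart.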

How the data were processed

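RNA-Seq libraries of total hippocampal RNA, depleted of ribosomal RNA, came from 3 Phf21bΔ4/Δ4 and 3 Phf21b+/+ mice. The authors trimmed reads with Trimmomatic 0.39, mapped them to GRCm38 (GENCODE M24) with STAR 2.7.3a, counted them with featureCounts of Subread 1.6.4, required that 2 or more samples reach a CPM of 1, normalized to effective library size with edgeR, and deposited log2 CPM per gene. The strandedness of the counting and the prior count are not given in the sources used here. After the lowest value, -7.81 (0 reads), was removed, 100.0% of values were whole reads within 0.1. Reads on listed genes came to between 20495605 and 24881257 per mouse, and 3 reads to between 0.127 and 0.143 CPM (counting error only). CPM are given without the prior.

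Samples were grouped by genotype from their labels. The deposited log2 CPM entered limma 3.58.1 in R 4.3.3 (lmFit, eBayes with trend, no covariate, 2-sided), and p-values were adjusted by Benjamini-Hochberg across the 14477 genes. The authors had tested read counts with edgeR, and their thresholds (FDR under 0.1, fold above 1.3) were kept. Exact permutation tests used all 20 divisions of the 6 mice. Each library is 1 mouse, and the p-values measure the spread between these samples. The test was run on simulated data with independent noise for each gene and planted changes larger than those of the markers. That check does not cover differences between mice that many genes share, or changes as small as those of the markers.

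Named were the 9 markers, *C1qc*, *Tyrobp*, *Phf21b*, genes called or at the ends of their list, and the 10 genes whose profile was most like that of the markers. Some genes these rules name are not reported here. Other genes were named after their values were seen. Markers and lists were chosen with earlier results of these data known. Exon lengths and positions are from GENCODE M21 on GRCm38, which holds 14283 of the symbols (98.7%), and promoters from RefSeq on GRCm38.p6. Alternatives were 2 pseudocounts, a filter on low values, quantile normalization, median centring, no variance trend, arrayWeights, voom, other thresholds, and leaving out each mouse. Length centring and leaving out pairs of mice were added after the data were seen. Python 3.11.15 was used with pandas 2.3.3 and matplotlib 3.10.9.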

Additional observations from a re-analysis of the deposited data

How the results depend on the processing

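The number of markers differentially expressed was 0 in 18 of 19 alternatives and 4 with arrayWeights. The alternatives with no fold threshold or an FDR under 0.05 reuse the main fit. Its lowest marker FDR was 0.167, so they could give no other count. With each mouse left out, the number of markers called was 0. Without Phf21bΔ4/Δ4 replicate 6, *C1qb* passed the FDR threshold but not the fold threshold (log2 fold change -0.35, FDR 0.0965, limma). *C1qa* then had -0.33 (FDR 0.102, limma). No paired analysis was possible because the labels give neither the litter nor any other pairing of the mice. The number of all genes called, 176, was 101 with only genes of a mean log2 CPM of at least 1, 75 without the variance trend, 3549 with arrayWeights, 25 at an FDR under 0.05, and 348 with length centring (higher genes 229, lower genes 119, against 80 and 96). With single mice left out it ranged from 9 (without Phf21b+/+ replicate 8) to 2830 (without Phf21bΔ4/Δ4 replicate 6). It was 0 without Phf21b+/+ replicates 7 and 8, and 49 without Phf21bΔ4/Δ4 replicates 2 and 3, where 1 mouse is left in a genotype and is assumed to vary like the others. Median centring gave 104 higher and 94 lower genes. The other microglial and pathway genes (109 analysed, 0 called) had 1 call with median centring, 27 with arrayWeights, 3 with length centring, and between 0 and 20 with each mouse left out, 20 without Phf21bΔ4/Δ4 replicate 6. The median log2 fold change of the markers, -0.10, ranged from -0.1779 to 0.046 over single mice left out, the positive values coming without Phf21bΔ4/Δ4 replicate 2 (0.046) and without Phf21b+/+ replicate 8 (0.042). It was 0.101 with length centring, where the median over all genes was 0.0767, and 0.0732 without Phf21bΔ4/Δ4 replicates 2 and 3. Of 153 recomputed values of single markers, 141 kept their sign and their side of the thresholds, 4 passed the thresholds, and 8 changed sign. *Trem2* ranged from -0.2712 to 0.0533 over single mice left out, positive without Phf21bΔ4/Δ4 replicate 2 (0.0533) and without Phf21b+/+ replicate 8 (0.042), and turned to 0.0449 with quantile normalization and 0.2538 without Phf21bΔ4/Δ4 replicates 2 and 3. *C1qa* turned to 0.101 with length centring and 0.0421 without those replicates 2 and 3, the mice in which it was lowest, *C1qb* to 0.064 and *Tmem119* to 0.0729 with length centring. *P2ry12*, *Cx3cr1*, *Csf1r*, and *Itgam* kept positive values in all 17 alternatives and *Aif1* negative ones. The FDR of *Csf1r* ran from 0.0333 to 0.945, and *Csf1r* stayed within a 1.3-fold change in each. The cause of these changes was not tested. Depth limits *Aif1* and *Itgam* most, with 97 to 135 and 102 to 130 reads per mouse.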

Other observations

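Among the 12957 genes whose mean log2 CPM reached 1, those whose log2 CPM over the 6 mice was most like the mean centred profile of the 9 markers included *Col11a1*, *Ankrd16*, *Fnbp1*, *Akap8l*, *Sbf2*, *D11Wsu47e*, *Zfp212*, *Fam98c*, and *Pde3b*, with a Pearson r from 0.96 to 0.99. None of these is on the microglial lists, and the profile itself spans only from -0.14 (Phf21bΔ4/Δ4 replicate 2) to 0.10 (Phf21b+/+ replicate 8) on the log2 scale. Of the 39 other microglial genes compared, 5 had an r above 0.8, against 2.28% of all genes compared, and *Csf3r* was the most alike (r 0.91). With 6 mice these values describe the libraries and carry no test.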
